A study of Mus musculus with 2 samples.

Results

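Collagen chain genes were examined in RNA sequencing of mouse embryonic fibroblasts, mesenchymal cells grown from embryos. They were chosen by name, as rows whose symbol is Col, a number, the letter a and a number with nothing more, and Col2a1 was left out. This gave 43 of 23365 genes. The study holds 2 genotypes with 1 library each: wild-type fibroblasts, and fibroblasts in which TET1 and TET2, dioxygenases that oxidize 5-methylcytosine in DNA, were knocked out. The labels name neither the age of the embryos nor a strain, and do not say how the alleles were made or how many cultures or animals stand behind a library. The authors compared conditions named A and B, and neither name matches a sample label. Each ratio is therefore that of B to A, with the genotype of each left unassigned. A log2 ratio of 1 is a doubling in condition B, and the mean normalized count is the authors' mean over both conditions of counts divided by size factors. With 1 library per condition there is no replicate check and no error on a ratio, so the spread of all genes at a like level is given as the yardstick.

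Collagens are secreted proteins built as trimers of alpha chains, each with a long repeat that has glycine at regular steps along it. Fibrillar collagens pack into the banded fibrils of connective tissue. Collagen IV forms the sheet-like network of basement membranes, with its chains encoded by head-to-head gene pairs. FACIT collagens (fibril-associated collagens with interrupted helices) sit on the surface of fibrils. Fibroblasts are a main source of fibrillar collagen and of the beaded filaments of collagen VI.

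As a check of the cells, all 6 fibroblast marker genes stood at means of 4397 or more by the authors' deposited table, with Fn1 (fibronectin) at 550534. Of these 6, Prrx1 and S100a4 were at least 2-fold higher in condition B by the authors' deposited table, with log2 ratios of 1.14 and 1.63, and the other 4 lay within 2-fold. Summed means by the authors' deposited table were 40.1 over 5 osteoblast markers, 127 over 4 blood cell markers, 151 over 6 epithelial markers, 343 over 4 skeletal muscle markers and 556 over 5 endothelial markers. Emr1 of blood cells and Myod1 and Myog of skeletal muscle are listed at 0. Smooth muscle markers, which cultured fibroblasts also make, summed to 163972, and 1 of 4 (Myh11, higher in condition B) lay past a log2 ratio of 1. The summed means of 6 chondrocyte markers reached 3479. Of these 6, 4 had a mean of at least 50, all with lower values in condition B. Sox9, the master factor of cartilage, had a log2 ratio of -1.67 by the authors' deposited table, Matn3 (matrilin 3) one of -2.09, Acan (aggrecan) one of -3.08 and Comp one of -3.11. In bulk RNA, fewer cells of a type and less RNA per cell cannot be told apart. The targeted genes Tet1 and Tet2 had log2 ratios of -1.82 and -0.74 by the authors' deposited table, and these values were not used to assign a genotype to either condition.

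Of the 43 collagen genes, 33 reached a mean of 50, the minimum used for counts. Among these 33, 8 were at least 2-fold higher in condition B, where 8.31% of 12401 genes at the same minimum were. Another 7 were at least 2-fold lower in condition B, where 9.60% of all genes were, and 18 lay within 2-fold. The median log2 ratio of the 33 was 0.32, and that of all genes at the minimum was -0.04 with quartiles of -0.39 and 0.30. Of the 8 higher genes 5, and of the 7 lower genes 3, had means from 50 to under 500. In that class 40.6% of all genes lay past 2-fold. A gene can pass the minimum through the condition where it is high, so these counts are a description. By the authors' own adjusted p under 0.1, 1 of the 33, Col4a6, was called higher in condition B, where 1.98% of all genes were, and 0 were called lower, where 1.22% were. That p compares 2 libraries and does not measure the spread between cultures.

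**Figure D1:**
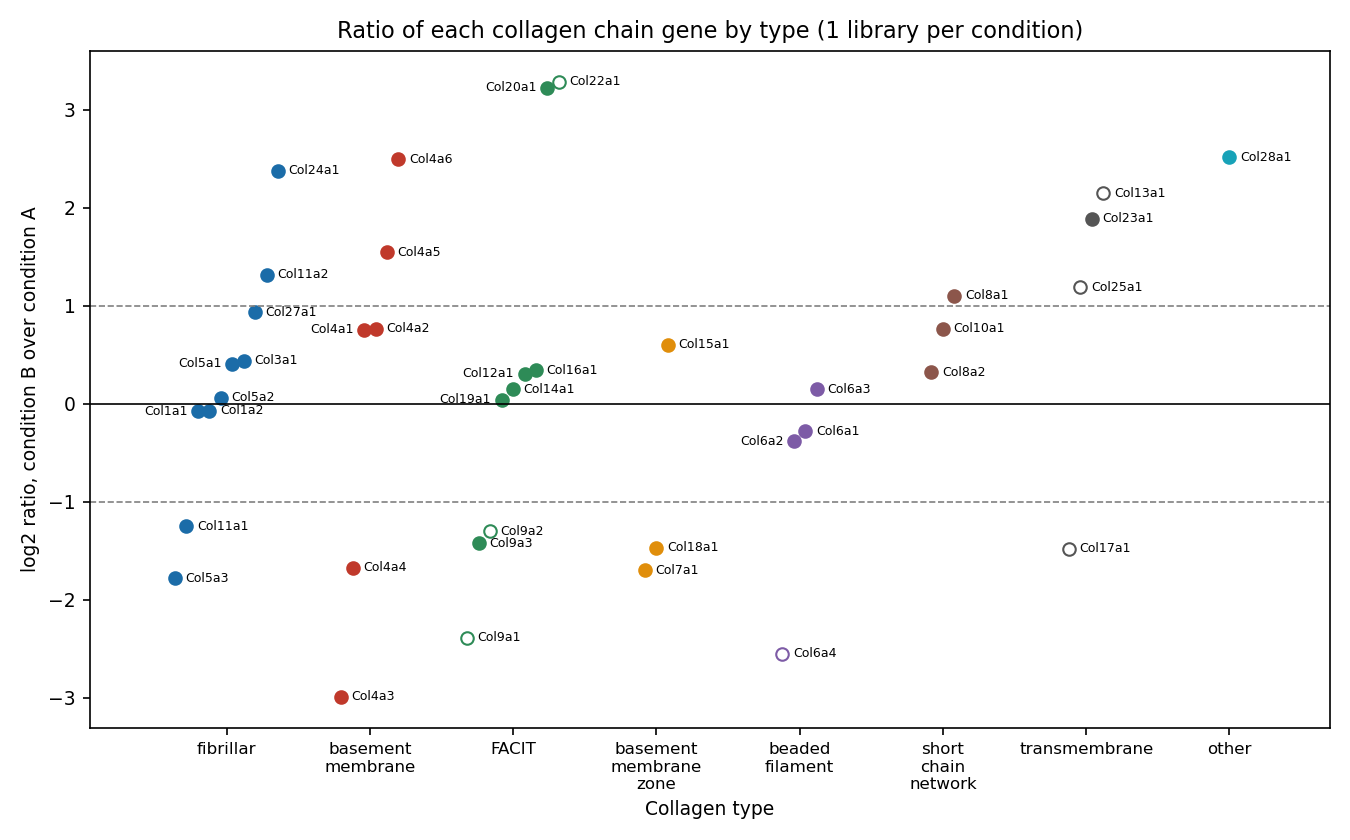
Log2 ratio of condition B over condition A (vertical axis) for each collagen chain gene, grouped by type, with 1 point per gene, filled where the mean normalized count is at least 50 and open below it. Dashed lines mark a 2-fold difference, and genes listed at 0 in 1 condition are not drawn. Chains of collagen I lie near 0, while the 6 collagen IV chains run from -2.99 to 2.50.

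The size of the difference went with the level of the gene. Among the 17 collagen genes with a mean of at least 5000, 12 lay within 2-fold and the median size of the log2 ratio was 0.41. Among the 16 with a mean from 50 to under 5000, 6 lay within 2-fold and the median size was 1.54. All genes showed a like gradient, since 40.6% of 2589 genes with means from 50 to under 500 lay past 2-fold and 6.91% of 2983 genes with means from 5000 to under 50000 did. At means from 50 to under 500, 5 of 11 collagen genes were at least 2-fold higher and 3 at least 2-fold lower. From 500 to under 5000, 1 of 5 was higher and 1 lower, where 14.2% of 6742 genes lay past 2-fold. From 5000 to under 50000, 2 of 9 collagen genes were at least 2-fold higher and 3 at least 2-fold lower. At means of 50000 or more, 6.90% of 87 genes lay past 2-fold and none of the 8 collagen genes there did.

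**Figure D2:**
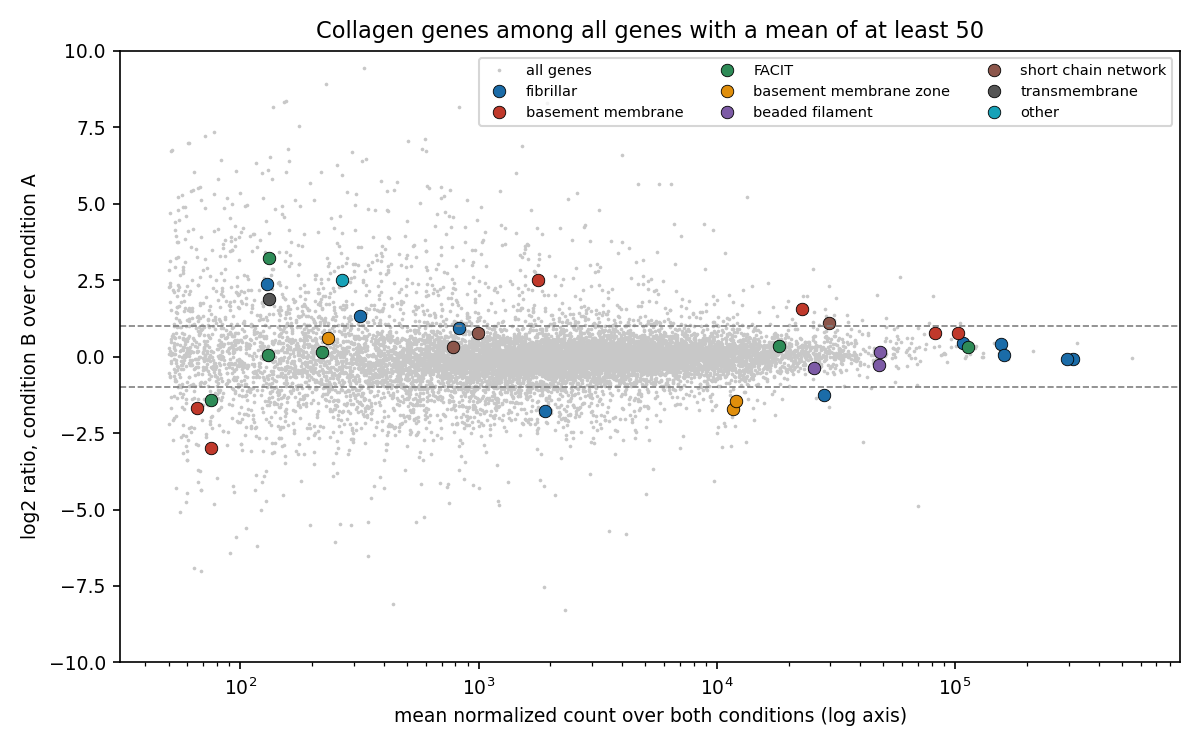
Log2 ratio (vertical axis) against the mean normalized count over both conditions (horizontal log axis) for all genes with a mean of at least 50 (grey) and for collagen genes coloured by type. The 8 collagen genes with means of 50000 or more lie between -0.08 and 0.77, and those below 500 run from -2.99 to 3.22.

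Levels of different chains were compared per kilobase of the longest GENCODE transcript, as the mean over both conditions. Fibrillar chains made up 69.3% of the summed collagen level per kilobase, collagen IV 12.8%, collagen VI 8.63%, FACIT chains 5.38% and the short chain collagens VIII and X 2.49%. Collagens VII, XV and XVIII of the basement membrane zone added 1.38%. Transmembrane collagens gave 0.0142%, and collagens XXVI and XXVIII gave 0.0252%. Col1a2 and Col1a1, the chains of collagen I, stood at 55385 and 52617 per kilobase and ranked 5 and 8 among 11695 genes with a transcript length. They alone gave 43.0% of the collagen sum, and the 9 highest chains gave 87.5%. The mean normalized counts of all 43 genes came to 2.72% of the table's sum of 58127871.

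**Figure D3:**
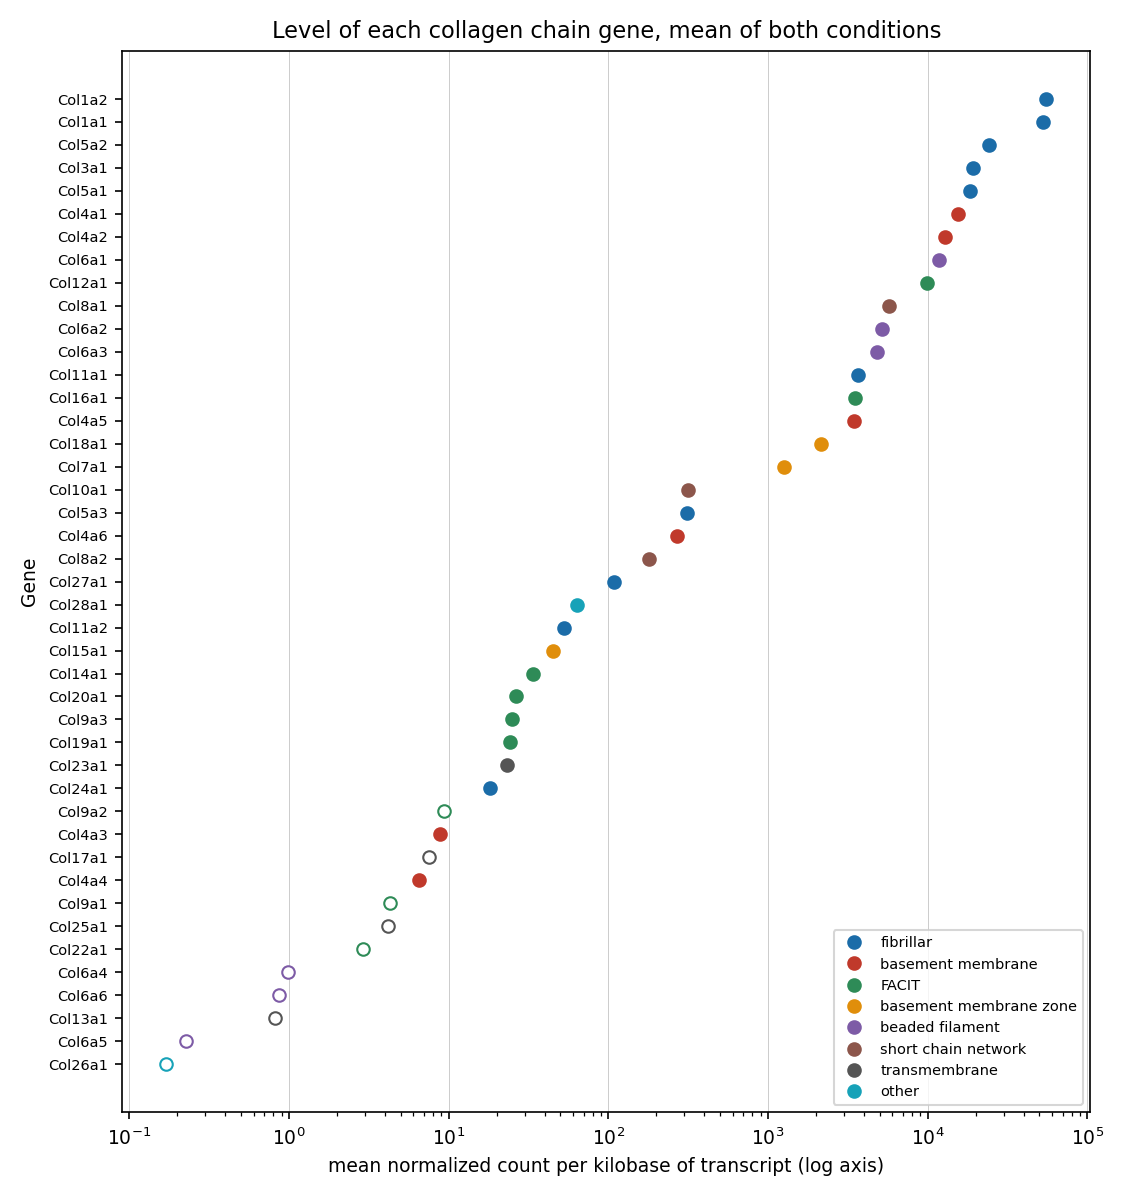
Mean normalized count per kilobase of transcript over both conditions (horizontal log axis) for each of the 43 collagen genes (vertical axis, ordered by level), coloured by type, open where the mean normalized count is under 50. Col1a2 at 55385 and Col1a1 at 52617 stand highest, and Col26a1 at 0.171 lowest.

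Fibrillar chains with means of 50000 or more all lay within 2-fold. Those with lower means ran from a log2 ratio of -1.78 to one of 2.38, with some past and some within 2-fold. Col1a1 had a mean normalized count of 312018 and a log2 ratio of -0.08 by the authors' deposited table. Its partner Col1a2, which joins it in the collagen I trimer, stood at 296200 with a log2 ratio of -0.07 by the authors' deposited table. Both lay low for genes of their abundance, since 12.6% and 13.8% of the 87 genes with means of 50000 or more had ratios as low, and the median of those genes was 0.26. Col3a1, the homotrimeric collagen of pliable tissues, had a mean of 107650 and a log2 ratio of 0.44 by the authors' deposited table. The collagen V chains Col5a1 and Col5a2, which nucleate collagen I fibrils and limit their width, had log2 ratios of 0.41 and 0.06 by the authors' deposited table at means of 155625 and 160240.

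The minor fibrillar chains went both ways. Col5a3, a further collagen V chain of restricted expression, was 3.44-fold lower in condition B by the authors' deposited table, at a mean of 1908 (adjusted p = 0.267). Of the 6742 genes with means from 500 to under 5000, 3.09% had a ratio as low. Col11a1, which nucleates cartilage fibrils, was 2.37-fold lower by the authors' deposited table, at a mean of 28105 (adjusted p = 0.722), and 1.98% of the 2983 genes of that abundance lay as low. Col11a2, its partner in collagen XI, went the other way at 2.49-fold higher in condition B by the authors' deposited table, on a mean of 318. Col24a1 was 5.20-fold higher by the authors' deposited table, on a mean of 129 where 8.85% of genes lay as high. Col27a1, a fibrillar collagen of cartilage, had a log2 ratio of 0.93 by the authors' deposited table at a mean of 830. Over the 10 fibrillar chains the median log2 ratio was 0.24. Of these 10, 2 were at least 2-fold higher, where 8.31% of all genes at the minimum were. Another 2 were at least 2-fold lower, where 9.60% were, and 6 lay within 2-fold. Both higher chains, Col11a2 and Col24a1, had means from 50 to under 500, where 40.6% of all genes lay past 2-fold.

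Collagen IV differed between its gene pairs. The ubiquitous chains Col4a1 and Col4a2, which form the common basement membrane trimer, had log2 ratios of 0.76 and 0.77 by the authors' deposited table at means of 102790 and 82438. Ratios as high were found in 13.8% and 12.6% of the 87 genes of that abundance. Col4a5, a chain of kidney, skin and smooth muscle basement membranes, was 2.92-fold higher in condition B by the authors' deposited table, at a mean of 22710 (adjusted p = 0.331), and 1.58% of genes of that abundance lay as high. Col4a6, which joins Col4a5 in a trimer, was 5.64-fold higher by the authors' deposited table, at a mean of 1783 (adjusted p = 0.0279), and 1.65% of genes of that abundance lay as high. Col4a3 and Col4a4, the remaining chains of the mature glomerular network, were 7.93-fold and 3.18-fold lower in condition B by the authors' deposited table, on means of 75.3 and 66.1. At that abundance 2.70% and 9.97% of genes had ratios as low, and per kilobase these chains stood at 8.80 and 6.54 where Col4a1 stood at 15539. Endothelial cells are rich in collagen IV, and the 2 of 5 endothelial markers at the minimum, Kdr and Tek, had log2 ratios of 2.78 and 1.21 by the authors' deposited table on means of 418 and 119. The other markers were under the minimum and went both ways. Pecam1 had a log2 ratio of 2.06 and Cdh5 one of -0.36 by the authors' deposited table, on means of 9.80 and 8.43. Tie1, at a mean of 0.474, is listed at 0 in condition B. The part of endothelial cells in the collagen IV values was not tested. The median over the 6 chains was 0.76, and without the scarce pair, at a minimum mean of 200, it was 1.16.

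Promoter windows of the 2 more abundant pairs are shown because both genes of each had a RefSeq window and lay on the same side, and TET enzymes act on methylated cytosines. Col4a3 and Col4a4 also lay on the same side, but Col4a3 had no RefSeq window, so that pair is not shown. They are RefSeq windows of GRCm38.p6, from 250 bases before to 50 after a gene's start, printed 5′ to 3′ on the gene's strand with CpG dinucleotides in capitals. That build is not the authors' mm9. Col4a1 lies at chr8:11312777-11313076 on the minus strand and Col4a2 at chr8:11312555-11312854 on the plus strand. Col4a5 lies at chrX:141475169-141475468 on the plus strand and Col4a6 at chrX:141474027-141474326 on the minus strand. Col1a2, an abundant chain with a ratio near 0, lies at chr6:4505368-4505667 on the plus strand.
Col4a1: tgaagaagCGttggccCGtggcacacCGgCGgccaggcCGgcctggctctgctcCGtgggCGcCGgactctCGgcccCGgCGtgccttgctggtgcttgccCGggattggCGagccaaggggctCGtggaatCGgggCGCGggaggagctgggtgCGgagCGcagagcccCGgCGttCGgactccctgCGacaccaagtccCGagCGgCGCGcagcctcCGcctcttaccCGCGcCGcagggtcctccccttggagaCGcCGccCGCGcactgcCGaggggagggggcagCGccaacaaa
Col4a2: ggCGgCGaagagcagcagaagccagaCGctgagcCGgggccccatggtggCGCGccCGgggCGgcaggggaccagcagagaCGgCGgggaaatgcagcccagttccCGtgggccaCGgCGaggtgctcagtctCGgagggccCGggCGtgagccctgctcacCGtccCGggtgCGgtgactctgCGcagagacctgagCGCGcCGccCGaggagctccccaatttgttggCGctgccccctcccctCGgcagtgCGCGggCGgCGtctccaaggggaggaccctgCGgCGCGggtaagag
Col4a5: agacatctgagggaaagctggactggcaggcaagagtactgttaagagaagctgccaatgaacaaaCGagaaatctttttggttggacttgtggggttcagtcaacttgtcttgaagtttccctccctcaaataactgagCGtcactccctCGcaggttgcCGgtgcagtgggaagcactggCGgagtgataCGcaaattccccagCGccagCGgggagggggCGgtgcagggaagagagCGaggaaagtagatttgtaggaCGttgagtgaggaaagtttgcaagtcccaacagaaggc
Col4a6: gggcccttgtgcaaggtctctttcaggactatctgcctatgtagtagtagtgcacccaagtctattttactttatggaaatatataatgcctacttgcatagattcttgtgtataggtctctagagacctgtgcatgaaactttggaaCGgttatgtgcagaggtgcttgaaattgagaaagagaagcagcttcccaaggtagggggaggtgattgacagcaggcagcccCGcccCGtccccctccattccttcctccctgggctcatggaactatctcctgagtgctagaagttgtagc
Col1a2: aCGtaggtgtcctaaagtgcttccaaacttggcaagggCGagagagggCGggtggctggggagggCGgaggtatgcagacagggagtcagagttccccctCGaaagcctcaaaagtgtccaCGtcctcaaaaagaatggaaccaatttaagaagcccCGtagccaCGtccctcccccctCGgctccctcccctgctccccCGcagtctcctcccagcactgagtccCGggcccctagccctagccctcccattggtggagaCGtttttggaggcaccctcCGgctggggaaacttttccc

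The Col4a1 and Col4a2 windows share 78 bases on opposite strands, chr8:11312777-11312854, which hold 9 CpG dinucleotides and are printed here on the plus strand.
Shared stretch: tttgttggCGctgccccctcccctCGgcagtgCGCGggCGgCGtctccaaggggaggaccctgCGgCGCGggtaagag

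The windows of Col4a1 and Col4a2 held 37 and 33 CpG dinucleotides, that of Col4a5 held 11, that of Col4a6 held 3 and that of Col1a2 held 13. The start sites of Col4a5 and Col4a6 lie 1343 bases apart, so their windows do not touch. The log2 ratios of Col4a1 and Col4a2 differed by 0.01, and those of Col4a5 and Col4a6 by 0.95. The annotated Col4a1 and Col4a2 exons overlap by 22 bases of Col4a1, and the libraries do not mark strand, so reads from that overlap cannot be told apart.

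Among FACIT collagens, 4 of the 6 chains at the minimum lay within 2-fold, 1 was higher and 1 lower in condition B. Over all genes at the minimum, 8.31% were at least 2-fold higher and 9.60% at least 2-fold lower. The higher and the lower chain, Col20a1 and Col9a3, had means from 50 to under 500, where 40.6% of all genes lay past 2-fold. Col12a1, which coats collagen I fibrils in dense tissue, had a mean of 113662 and a log2 ratio of 0.31 by the authors' deposited table. Col16a1, of dermal fibrils and microfibrils, stood at 18288 with a log2 ratio of 0.34 by the authors' deposited table. Col14a1, a regulator of fibril diameter, and Col19a1 had log2 ratios of 0.15 and 0.04 by the authors' deposited table at means of 219 and 131. Col20a1 was 9.34-fold higher in condition B by the authors' deposited table, on a mean of 132 (adjusted p = 0.416), and 5.76% of the 2589 genes of that abundance lay as high. Col22a1, which marks tissue junctions, had a mean of 25.6, under the minimum, and a log2 ratio of 3.29 by the authors' deposited table.

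Collagen IX, the FACIT of cartilage fibrils, lay lower in condition B in each of its chains, at low levels. Col9a3 was 2.68-fold lower by the authors' deposited table, on a mean of 75.6, and 12.7% of genes of that abundance lay as low. Col9a1 and Col9a2, both under the minimum with means of 16.4 and 27.4, had log2 ratios of -2.38 and -1.30 by the authors' deposited table. The 4 chondrocyte markers at the minimum were also lower, by log2 ratios from -3.11 to -1.67, and their part in the collagen IX and XI values was not tested. Col10a1, the collagen of hypertrophic cartilage, had a positive log2 ratio of 0.77 by the authors' deposited table at a mean of 995. Its exons share 18 bases (0.575%) with Nt5dc1. Shares of at least 5% of exonic bases were found in 2 of the 43 collagen genes, both with low means. Col9a3 shares 234 bases (6.07%) with Tcfl5, and Col4a3 shares 563 bases (5.65%) with C430014B12Rik. The libraries do not mark strand, so reads from these stretches cannot be told apart. Over the 6 FACIT chains at the minimum the median log2 ratio was 0.23, beside 0.24 for fibrillar chains and 0.76 for collagen IV.

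Of the 3 collagens of the basement membrane zone, 2 were at least 2-fold lower in condition B, where 9.60% of all genes at the minimum were. The other lay within 2-fold. Col7a1, which forms the anchoring fibrils of skin, was 3.25-fold lower in condition B by the authors' deposited table, at a mean of 11727 (adjusted p = 0.223). Col18a1, the precursor of endostatin, was 2.77-fold lower by the authors' deposited table, at a mean of 12088 (adjusted p = 0.425). Only 0.872% and 1.37% of the 2983 genes of that abundance lay as low. Keratinocytes are a main source of Col7a1. Of 6 epithelial markers only Krt18 reached the minimum, with a log2 ratio of -2.29 by the authors' deposited table on a mean of 111. Under the minimum the markers went both ways. Cdh1, Epcam and Krt8 had log2 ratios of -1.81, -1.66 and -2.66 by the authors' deposited table, on means of 21.3, 4.37 and 3.85. Krt5 had one of 4.24 on a mean of 9.43, and Krt14, at a mean of 0.527, is listed at 0 in condition A. The part of epithelial cells in these values was not tested. Col15a1, a close relative of Col18a1, had a log2 ratio of 0.61 by the authors' deposited table on a mean of 233.

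The beaded filament chains of collagen VI lay close together. Col6a1, Col6a2 and Col6a3, which assemble into 1 molecule, had means of 47975, 25487 and 48421 and log2 ratios of -0.28, -0.38 and 0.15 by the authors' deposited table. Col6a4, Col6a5 and Col6a6, which can take the place of Col6a3 in the trimer, were under the minimum with means of 7.22, 2.11 and 7.59. Col6a5 is listed at 0 in condition A and Col6a6 at 0 in condition B.

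Among short chain collagens, Col8a1, of vessel walls and the corneal Descemet membrane, was 2.15-fold higher in condition B by the authors' deposited table, at a mean of 29465 (adjusted p = 0.989). Of the genes of that abundance 3.05% lay as high. Its partner Col8a2 had a log2 ratio of 0.32 by the authors' deposited table on a mean of 779. Transmembrane collagens were scarce. Col23a1 was 3.71-fold higher by the authors' deposited table on a mean of 132, where 11.7% of genes lay as high. Col13a1, Col17a1 and Col25a1 had means of 2.58, 41.9 and 28.0. Col28a1, a collagen of peripheral nerve, was 5.71-fold higher by the authors' deposited table, on a mean of 268 (adjusted p = 0.348), where 8.30% of genes lay as high. Col26a1 had a mean of 0.474 and is listed at 0 in condition B.

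Chains of 1 molecule, or neighbouring genes, were set side by side in 12 pairs. Both genes reached the minimum in 10 pairs. The log2 ratios of 6 of these pairs differed by under 0.5 and those of 2 pairs by at least 1. Both genes of each of the 6 close pairs had means of at least 5000, and Col5a2 and Col6a1 each stand in more than 1. Quartiles of all genes were -0.22 and 0.28 at means from 5000 to under 50000, and 0.04 and 0.47 above. Pairs of unrelated genes were not compared, so the counts do not show closeness particular to partner chains. The closest pair was Col1a1 and Col1a2, whose levels per kilobase also stood at a ratio of 0.950, while collagen I holds 2 copies of the first chain for each of the second. Col11a1 and Col11a2 were farthest apart, with a difference of 2.57 and a level of Col11a1 per kilobase 69.7 times that of Col11a2. Col8a1 stood at 32.1 times Col8a2 per kilobase, and Col4a5 at 13.0 times Col4a6. The neighbours Col3a1 and Col5a2 differed by 0.37 in log2 ratio, and Col6a1 and Col6a2 by 0.10.

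Promoter windows matched 35 of the 43 genes, and where a gene had more than 1 the window richest in CpG was used. CpG observed over expected, the count of CpG dinucleotides relative to that given by the C and G content, had a median of 0.54 in the 27 collagen genes at the minimum with a window. The median was 0.80 in the 9231 genes at the minimum with a window and 0.84 in the 2356 with means of at least 5000. Collagen windows ran from 0.00 in Col3a1 and Col28a1 to 0.90 in Col4a1. Among the 27, the 13 past 2-fold had a median of 0.49 and the 14 within it one of 0.57. The 4 genes at the minimum with log2 ratios of at least 2, Col20a1, Col28a1, Col4a6 and Col24a1, had values from 0.00 to 0.27. That comparison was made after the values were seen. The remaining genes at least 2-fold higher in condition B, Col8a1, Col4a5, Col11a2 and Col23a1, had values from 0.54 to 0.70. The other 3 collagen genes at the minimum under 0.3, Col3a1, Col6a1 and Col6a3, lay within 2-fold. Under the minimum mean, Col9a1 and Col6a4 also had low values, 0.04 and 0.22, with log2 ratios of -2.38 and -2.55. Windows poor in CpG were thus found at ratios past and within 2-fold.

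**Figure D4:**
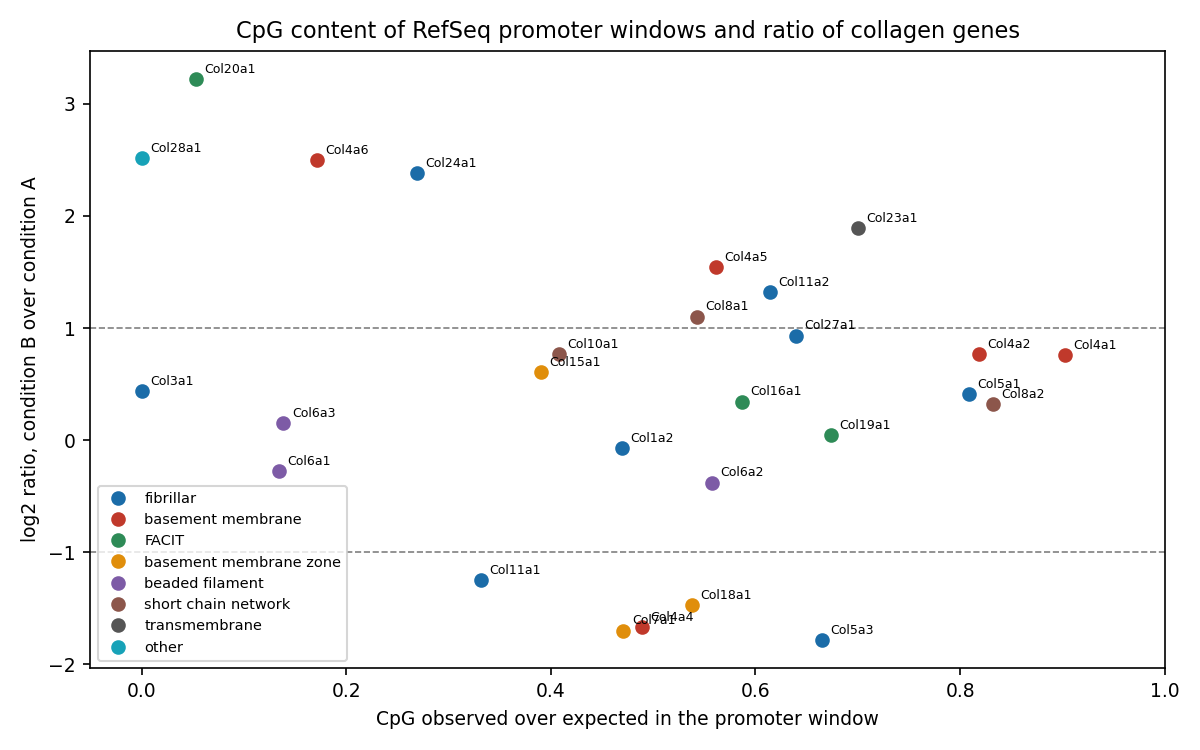
CpG observed over expected in the RefSeq promoter window (horizontal axis) against the log2 ratio of condition B over condition A (vertical axis) for the 27 collagen genes at the minimum with a window, coloured by type. Below 0.3 lie Col20a1, Col28a1, Col4a6 and Col24a1 with log2 ratios of at least 2 and Col3a1, Col6a1 and Col6a3 within 2-fold of even.

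Short motifs were searched on both strands of the windows. CCAAT, the letters of the CCAAT box, was found in 8 of 14 windows of collagen genes with means of at least 5000, in 37.1% of windows of all genes at that level and in 37.4% of all 32851 windows. In the 21 collagen genes with lower means it was found in 5 windows. Over all 35 collagen genes with a window it was found in 13, or 37.1%, so the family as a whole showed no excess. GGGCGG, the core of the GC box, was found in 11 of those 14 and in 75.6% of windows of all genes at that level. TATAAA was found in 1 of the 14 and in 6.49% of windows of all genes at that level. A match is a description of the letters and not a site of binding.

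Another list holds genes that modify and fold collagen in the endoplasmic reticulum. Of 20 listed, 19 reached the minimum, and of these 2 were at least 2-fold higher in condition B, none was at least 2-fold lower and 17 lay within 2-fold, with a median log2 ratio of 0.15. Over all genes 8.31% were that much higher and 9.60% that much lower, and the same shares apply to the lists that follow. The higher genes were Leprel1, a prolyl 3-hydroxylase that acts on collagen IV, with a log2 ratio of 1.71 by the authors' deposited table on a mean of 475, and P4ha3, a prolyl 4-hydroxylase subunit, at 1.21 on a mean of 11205. Tmem38b and Crtap followed at 0.68 and 0.47 by the authors' deposited table. The procollagen chaperone Serpinh1 (HSP47), chosen after its value was seen, had a log2 ratio of -0.15 by the authors' deposited table at a mean of 71542.

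Of 13 genes that process and cross-link procollagen, 12 reached the minimum, and 1 was at least 2-fold higher, 2 were at least 2-fold lower and 9 lay within 2-fold, with a median log2 ratio of 0.16, where 17.9% of all genes lay past 2-fold in either direction. Loxl2, a lysyl oxidase that cross-links collagen IV, had a log2 ratio of 1.27 by the authors' deposited table at a mean of 51103. Adamts14, a procollagen N-proteinase, had one of -1.51 by the authors' deposited table on a mean of 1510, and the lysyl oxidase gene Loxl4 one of -1.01 on 7063, which lay inside 2-fold once ratios were centred on all genes. Bmp1, the procollagen C-proteinase, had a log2 ratio of 0.90 by the authors' deposited table at a mean of 21792.

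Of 10 collagen receptor genes, 8 reached the minimum, with 1 at least 2-fold higher and 1 at least 2-fold lower, where 8.31% and 9.60% of all genes were. Their median log2 ratio was 0.48. Itga2, the integrin chain that binds collagen I, had a log2 ratio of 3.02 by the authors' deposited table on a mean of 429 (adjusted p = 0.0543, the authors' only call under 0.1 in this list, where 1.98% of all genes were called higher). Itga10, the integrin chain of chondrocytes, had one of -1.08 by the authors' deposited table on a mean of 148. Itga1, which prefers collagen IV, and the endocytic collagen receptor Mrc2 had log2 ratios of 0.96 and 0.86 by the authors' deposited table at means of 1082 and 32090.

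**Figure D5:**
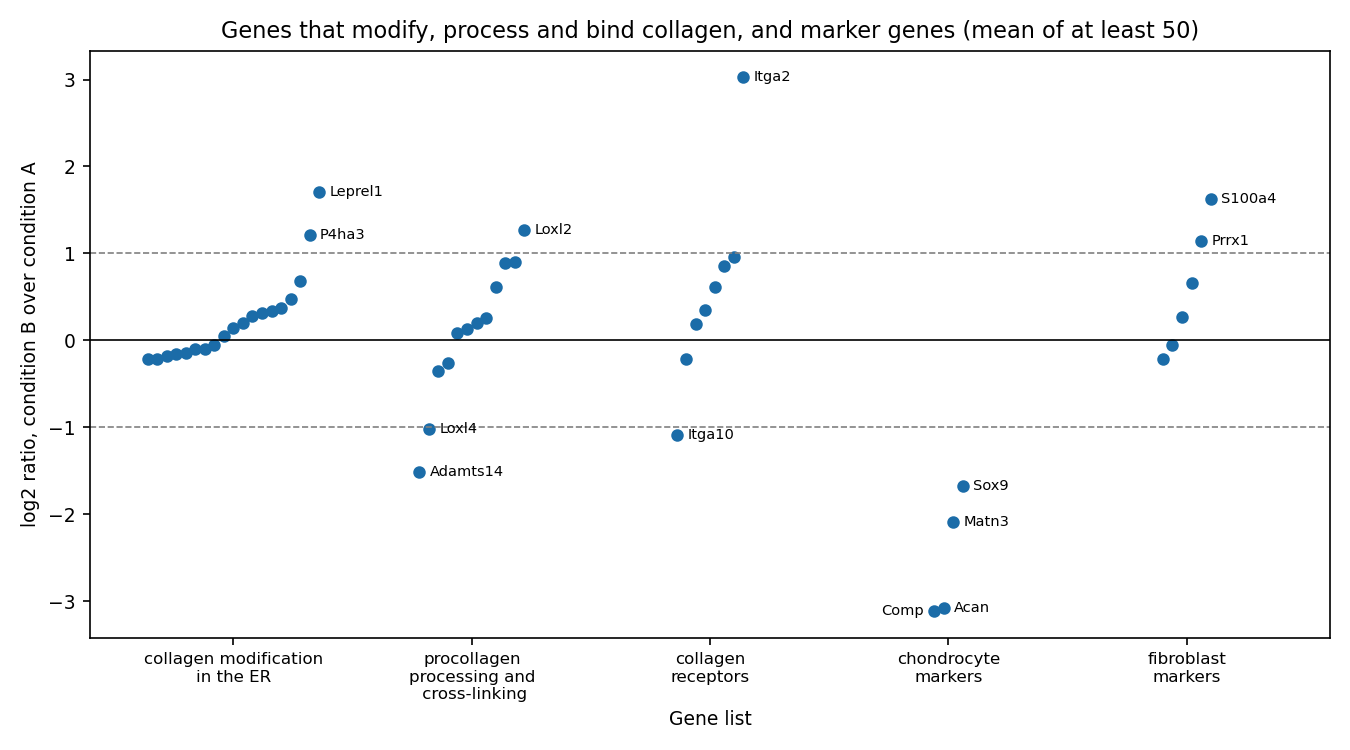
Log2 ratio of condition B over condition A (vertical axis) for genes at the minimum mean of 50 in 3 lists of the collagen pathway and 2 lists of marker genes (horizontal axis), with 1 point per gene and names for those past 2-fold (dashed lines). The collagen modification genes lie between -0.21 and 1.71, and the 4 chondrocyte markers between -3.11 and -1.67.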

How the data were processed

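RNA of wild-type and TET1/TET2 knock-out mouse embryonic fibroblasts was sequenced, with 1 library per genotype, from TruSeq libraries that do not mark strand, per the labels' protocols. The labels name the molecule as DNA of the genome, whereas the protocol they give is one for RNA. TopHat2 2.0, DESeq and mm9 are named, per the submitters' processing notes; no source used here gives the counter, the annotation or the dispersion settings. The authors deposited a signal, the mean over both conditions of counts divided by size factors, a ratio of condition B over condition A and its log2 value with no pseudocount. Their raw and adjusted p-values were also deposited by the authors, and 17339 genes have one. The names of the conditions match no sample label, so 2 columns of values, 1 per condition, were set aside. Types were therefore compared on the mean and the ratio, and no counts, depths or counting intervals were obtained.

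Genes with a mean of at least 50 were counted past a log2 ratio of 1 in size. Levels per kilobase used the longest GENCODE M21 transcript, and promoter sequences came from RefSeq (GRCm38.p6). The members, the 12 gene lists, the types and the thresholds were chosen with earlier results of these data known. Of each list up to 4 genes with the largest ratios were named, and all collagen genes were accounted for. Protein features were planned and not analysed here. The counting code was run on simulated counts with Poisson noise and no spread between libraries. That run checks the code and cannot show how many genes pass 2-fold through such spread. Python 3.11.15, pandas 2.3.3 and numpy 2.4.6 were used. Alternatives were other minimum means, ratio sizes, adjusted p thresholds, centrings, a wider basement membrane type, coding lengths and sums without collagen I.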

Additional observations from a re-analysis of the deposited data

How the results depend on the processing

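No paired analysis was possible because each genotype had 1 library and the result comes from no test. The count of collagen genes at least 2-fold higher in condition B (8) was 5 with a minimum mean of 200, 3 with one of 500 (chosen after seeing the data), 13 at a 1.5-fold ratio or more and 4 at a log2 ratio of at least 2. The count at least 2-fold lower (7) was 4 with a minimum mean of 200, 4 with one of 500, 13 with no minimum and 1 at a log2 ratio of at least 2. The median of collagen IV (0.76) was 1.16 with a minimum mean of 200, which leaves out Col4a3 and Col4a4. With collagens VII, XV and XVIII added to the type, it was 0.61. The fibrillar median (0.24) was 0.06 at that minimum, which leaves out Col24a1, and 0.42 without collagen I. The FACIT median (0.23) was 0.15 with a minimum mean of 10. Without collagen I, fibrillar chains made up 46.2% of the summed level per kilobase, collagen IV 22.4% and FACIT chains 9.43%. Centring on the median (-0.04) or on the trimmed mean of log2 ratios (-0.04) left the 33 single ratios on the same side of 2-fold. With either centring, added after seeing the data for these lists, the lower genes among those that process procollagen numbered 1, since Loxl4 at -1.01 moved inside 2-fold. Of 153 alternative values, 132 kept their direction and side or stayed within 1.5 times. This tally includes 66 values of single ratios under another centring, and all 66 kept their side. That outcome was fixed, since the shift was 0.04 and no collagen ratio lay that close to 2-fold. The type medians under another centring were fixed for the same reason. Some minimum means changed no member of a type, as for the basement membrane zone, whose median stayed at -1.47. The tally is therefore not a measure of how stable the results are. Outside those 66, 20 values moved and 1 became stronger. The call of Col4a6 was kept at an adjusted p under 0.05. With 1 library per condition, no error can be set on a ratio, and 40.6% of genes with means from 50 to under 500 lay past 2-fold.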
